A study of Mus musculus with 4 samples.

Results

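Resident-like macrophage spots were taken here as the 10% of spots, within each of 4 tumor sections, with the highest share of UMIs in 5 genes, *Fcrls*, *Cbr2*, *F13a1*, *Folr2* and *Mrc1*. A spot is a barcoded area of a 10x Genomics Visium slide that captures the RNA of the tissue above it. A UMI (unique molecular identifier) marks 1 captured RNA molecule. Of 11798 spots with 5000 or more UMIs, out of 11947 under tissue, 1178 were chosen in this way and are called resident-high spots. CC075F1 replicates 1 and 2 gave 265 and 325 of them, and CC080F1 replicates 1 and 2 gave 276 and 312. The 5898 spots in the lower 50% of each section by the same share served as the comparison and are called low-share spots. A Visium spot holds several cells, so a resident-high spot is a small region of tissue and not a macrophage.

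The sections came from MC38 tumors, a colon carcinoma line that arose in a C57BL/6 mouse. Female F1 hosts, 8 to 12 weeks old, had received the tumor cells subcutaneously. CC075F1 hosts had the genotype C57BL/6J x CC075/UncJ and CC080F1 hosts C57BL/6J x CC080/TauUncJ, with 2 biological replicates each. The study places the first strain among responders to anti-PD-1 and the second among non-responders. Once tumors measured 75 to 110 mm3, all 4 mice were given 1 intraperitoneal dose of 200 µg of isotype control antibody (2A3), and they were killed after 48 hours. No anti-PD-1-treated section was analysed here. The host cells of each tumor carried the F1 genotype while the injected cells did not, and each section is a single plane of 1 tumor.

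Macrophages of solid tumors come from blood monocytes and from cells that already lived in the tissue. Resident macrophages of skin, muscle and other connective tissues take up debris, iron and glycoproteins, and they typically lie along vessels and collagen fibres. They are marked by scavenger and uptake receptors, many of which are also raised in alternatively activated (M2-like) macrophages. *Mrc1* encodes the mannose receptor CD206, *Folr2* folate receptor beta, *F13a1* the A subunit of coagulation factor XIII, *Cbr2* a carbonyl reductase and *Fcrls* a scavenger receptor of the Fc receptor-like family. *Mrc1* is also made by some endothelial cells, so it does not mark macrophages alone.

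The 5 genes lie on separate chromosomes of GRCm38. *Fcrls* is at chr3:87250758-87263738 on the minus strand, *Cbr2* at chr11:120729489-120732114 on the minus strand and *F13a1* at chr13:36867178-37050244 on the minus strand. *Folr2* is at chr7:101839988-101857194 on the minus strand and *Mrc1* at chr2:14229392-14332057 on the plus strand. The promoters (250 bases before to 50 after the start, RefSeq on GRCm38.p6) of *Cbr2*, which differed most between the classes in the tests below, and of *F13a1*, the rule gene called with spots chosen on their neighbours, are shown so that the control regions of both can be read beside their values. Capitals mark GAGGAA, the core bound by PU.1 (the factor that macrophages need to develop), and TGCTGA, a short form of the site bound by MAF factors, on either strand. The *Cbr2* promoter is chr11:120731972-120732271 and the first *F13a1* promoter is chr13:37050195-37050494, both read on the minus strand.
Cbr2: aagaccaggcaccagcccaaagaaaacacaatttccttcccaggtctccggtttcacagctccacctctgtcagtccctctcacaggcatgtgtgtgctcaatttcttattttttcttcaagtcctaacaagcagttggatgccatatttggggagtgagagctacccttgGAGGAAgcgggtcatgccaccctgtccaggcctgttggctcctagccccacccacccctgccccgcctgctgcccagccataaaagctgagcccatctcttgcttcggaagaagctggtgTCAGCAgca
F13a1: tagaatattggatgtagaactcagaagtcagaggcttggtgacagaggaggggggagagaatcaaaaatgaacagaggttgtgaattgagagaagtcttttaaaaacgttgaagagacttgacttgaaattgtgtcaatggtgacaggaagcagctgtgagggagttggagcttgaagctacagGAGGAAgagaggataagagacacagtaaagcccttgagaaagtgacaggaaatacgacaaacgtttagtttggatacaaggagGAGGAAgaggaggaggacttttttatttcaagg
The *Cbr2* window held 1 match of each motif and the *F13a1* window 2 of the PU.1 core and 0 of the MAF motif. Over all 32851 promoters of that length, 28.3% held the PU.1 core and 19.5% the MAF motif. These matches are a description of the letters, and binding was not measured.

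The values that chose the spots differed between the sections. The median share of the 5 genes, in UMIs per 10000, was 1.86 in the resident-high spots of CC075F1 replicate 1 and 1.67 in those of replicate 2. It was 4.32 and 5.29 in CC080F1 replicates 1 and 2. In the low-share spots CC075F1 had medians of 0.325 and 0.168, and CC080F1 of 1.48 and 1.45. The low-share spots of CC080F1 therefore had about the same share as the resident-high spots of CC075F1. The lowest resident-high spot and the highest spot outside the class had 1.5339 and 1.53382 in CC075F1 replicate 1, 1.26 and 1.25 in replicate 2, 3.76449 and 3.76439 in CC080F1 replicate 1, and 4.3465 and 4.34468 in replicate 2. When the limit of CC075F1 replicate 1 was applied to CC080F1, 73.0% and 72.2% of the spots passed it. The limit of CC080F1 replicate 1 was passed by 5 and 17 spots of the CC075F1 sections (0.189% and 0.523%).

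Each choice rested on few molecules. A resident-high spot held a median of 6 and 5 UMIs of the 5 genes in CC075F1 and of 15 and 17 in CC080F1, against 1 and 1 and 5 and 5 in low-share spots. Spots with 0 UMIs of all 5 genes made up 17.2% and 19.3% of spots in CC075F1 and 1.3% and 2.18% in CC080F1. *Mrc1* gave 54.4% and 46.6% of these UMIs in the resident-high spots of CC075F1, but 29.3% and 23.7% in CC080F1. *Fcrls* gave between 31.6% and 39.0% in every section. *Cbr2* gave 4.64% and 4.55% in the CC075F1 sections, against 10.4% and 12.8% in CC080F1. *F13a1* gave 7.45% and 7.21%, against 13.8% and 17.1%. The class is thus weighted to *Mrc1* in CC075F1 and spread more evenly over the genes in CC080F1.

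**Figure D1:**
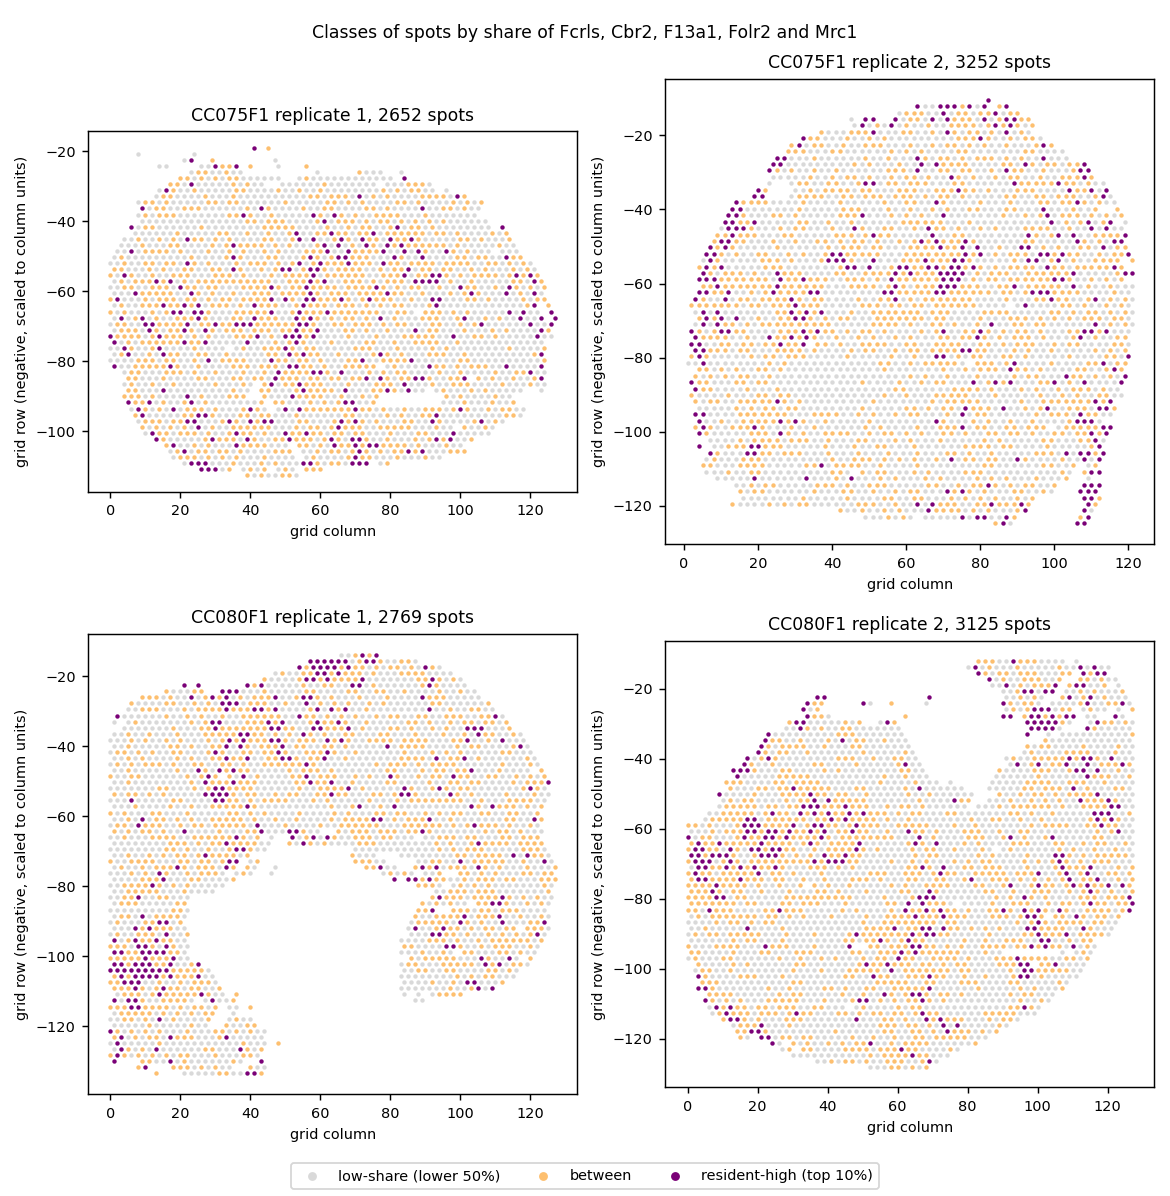
Spots with 5000 or more UMIs in the 4 sections, placed by their row and column on the Visium grid, with resident-high, low-share and remaining spots in separate colors. Resident-high spots were scattered through every section in 138 to 167 patches, and 44.0% of those in CC075F1 replicate 2 lay within 3 steps of the edge of the tissue.

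CC075F1 replicate 2 stood apart from the other sections. Section totals ran from 82594649 to 146460975 UMIs, the highest being this one. Its resident-high spots had a median of 28123 UMIs and its low-share spots 45047, whereas the medians of the classes were 31718 and 30165.5 in CC075F1 replicate 1, 32670.5 and 33591 in CC080F1 replicate 1 and 30294.5 and 34623.5 in CC080F1 replicate 2. Spots in which skin, muscle or fat markers passed 1% of UMIs numbered 35 in that section, of which 20 were resident-high and 5 low-share, and 0, 0 and 2 in the others. Mitochondrial UMIs made up 1.39% to 2.25% of resident-high and 1.35% to 1.94% of low-share spots. Counts of called genes are therefore also given without that section in most comparisons. Values of single genes and of lists are mostly given by section or over all 4 sections alone. Depth and surrounding tissue moved with the class there, and their part in the results was not tested beyond the alternatives named. The labels do not say whether the 4 sections shared a slide or a library batch. Barcodes are shared between sections by the design of the slide (1666 of them occurred in all 4), so they carry no information on shared tissue.

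To ask whether the 5 genes marked the same spots beyond the choice itself, each was left out in turn, spots were chosen on the other 4, and the left-out gene was compared (UMIs summed by class and section, edgeR quasi-likelihood test paired by section, Benjamini-Hochberg adjustment over all genes tested). The level of each gene, in CPM (counts per 1e+06 UMIs of the sum), was higher in the chosen spots than in the low-share spots of all 4 sections. *Cbr2* was at 5.13 against 2.25 CPM in CC075F1 replicate 1, 5.33 against 1.17 in replicate 2, 32.7 against 17.0 in CC080F1 replicate 1 and 58.4 against 13.2 in replicate 2, a log2 difference of 1.55 ± 0.20 (SE). *F13a1* was at 7.48 against 3.23, 8.86 against 2.57, 29.5 against 21.8 and 70.9 against 29.7 CPM in the same order, a log2 difference of 0.99 ± 0.15. *Folr2* was at 2.15 against 1.62, 7.04 against 3.22, 24.9 against 14.2 and 47.5 against 19.7 CPM, a log2 difference of 0.94 ± 0.11. *Mrc1* and *Fcrls* differed less, by 0.73 ± 0.13 and 0.52 ± 0.10. The smallest of their section ratios were 1.13 for *Mrc1* and 1.21 for *Fcrls*.

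None of the 5 passed an adjusted p of 0.05 in edgeR, although all 5 had an unadjusted p below 0.05, and no other tool was run on these fits. With spots of 10000 or more UMIs, *Fcrls* was called (adjusted p = 0.0468). The adjusted p-values were 0.0515 (*F13a1*), 0.0560 (*Fcrls*), 0.0567 (*Folr2*), 0.0725 (*Cbr2*) and 0.0974 (*Mrc1*). In the same fits the share of all genes called higher was 0.00744%, 0.415%, 0%, 0% and 0.0521%. Without CC075F1 replicate 2 the adjusted p-values ran from 0.00166 (*Folr2*) to 0.0515 (*Mrc1*), and 4 of 5 genes were called. Leaving out CC075F1 replicate 1 or CC080F1 replicate 1 gave 3 calls each, and leaving out CC080F1 replicate 2 gave 0, with adjusted p-values from 0.469 to 0.821.

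A second check chose spots on the mean share of the 5 genes in the up to 6 neighbouring spots, so that a spot's own UMIs played no part. Here *F13a1* was at 9.87 against 2.55, 8.68 against 2.78, 48.7 against 18.5 and 68.5 against 26.1 CPM, and it was called (log2 difference 1.46 ± 0.10, adjusted p = 0.0172, edgeR). It was the only gene called of 13452 (0.00743%). With the choice made on spots 2 steps away, *F13a1* alone of the 5 was called (1.28 ± 0.10, adjusted p = 0.0437, edgeR). Spread of RNA between adjacent spots was not measured. *Cbr2* differed by 1.65 ± 0.20 (adjusted p = 0.156), *Fcrls* by 0.97 ± 0.11 (0.156), *Mrc1* by 0.90 ± 0.13 (0.242) and *Folr2* by 0.85 ± 0.12 (0.182). Without CC075F1 replicate 2, all 5 were called in edgeR, the largest adjusted p being 0.00460, against 0.288% of all genes called higher. Without CC075F1 replicate 1, 1 was called, and without either CC080F1 section 0 of the 5.

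**Figure D2:**
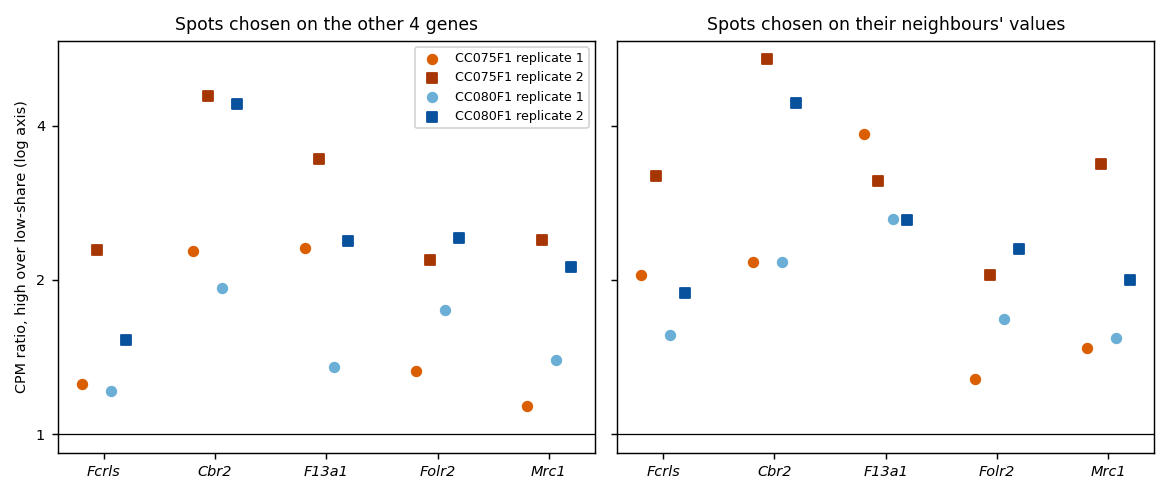
Ratio of CPM in chosen over low-share spots (log axis) for each of the 5 genes and each section, with spots chosen on the other 4 genes (left) or on neighbouring spots (right). All 40 points lie above 1, and *Cbr2* reached 5.39 in CC075F1 replicate 2.

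The choice itself widens the contrast in the rule genes. When the UMIs of each spot were divided at random into 2 sets, with spots chosen on one set and levels read from the other (a check added after the data were seen), the ratio of resident-high to low-share spots was 14.2, 23.4, 4.23 and 4.92 in the choosing set. In the other set it was 1.38 and 2.80 in CC075F1 and 1.51 and 2.32 in CC080F1. The mean log2 ratio there was 0.94 ± 0.49 (SD, n = 4 sections). Both sets hold the same 5 genes of the same spots, so this ratio is a description of the class and no test. Of the spots chosen as resident-high on the choosing set, 150, 212, 160 and 215 were also resident-high on all UMIs. All UMIs include the choosing set, and no spots were chosen on the other set, so agreement between the 2 sets was not measured. CC075F1 replicate 1 had the weakest contrast in this check.

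Resident-high spots lay next to each other more often than their share of the section in all 4 tumors. A neighbour of a resident-high spot was itself resident-high 1.49 and 2.67 times as often as any spot in CC075F1 and 2.34 and 2.61 times as often in CC080F1. The mean log2 ratio was 1.15 ± 0.39 (SD, n = 4 sections), above 0 in 4 of 4 (exact sign-flip permutation p = 0.13, the smallest possible). It was 1.12 within strata of spot depth. With all spots thinned to 5000 UMIs it was 0.41, still above 0 in every section. Moran's I, the correlation of the share between neighbouring spots, was 0.164 and 0.236 in the CC075F1 sections and 0.231 and 0.322 in those of CC080F1, as a description. Single spots with no resident-high neighbour made up 44.5%, 26.2%, 38.8% and 27.6% of the class. The largest patches held 20, 22, 35 and 19 spots.

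Position at the edge differed between the sections. Spots within 3 grid steps of a position off tissue made up 44.0% of resident-high and 17.2% of low-share spots in CC075F1 replicate 2. In CC075F1 replicate 1 these shares were 21.5% and 23.0%, in CC080F1 replicate 1 34.1% and 32.2%, and in CC080F1 replicate 2 23.4% and 21.9%. The mean log2 ratio was 0.36 ± 0.67 (SD, n = 4 sections, exact sign-flip permutation p = 0.5), and 0.026 without CC075F1 replicate 2. Within strata of spot depth the mean log2 ratio was 0.032, and the shares in CC075F1 replicate 2 were 25.3% and 18.9%. For spots 1 step from the edge the mean log2 ratio was 0.81 and above 0 in all 4 sections (exact permutation p = 0.13).

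The main comparison asked what else differed between resident-high and low-share spots, with the 5 rule genes left out. Values are CPM scaled by TMM factors, which correct for composition. In a spot, more cells of a type and more RNA per cell cannot be told apart. Of 13440 genes tested, 0 were called at an adjusted p of 0.05 (0%, edgeR), and 1779 had an unadjusted p below 0.05, 965 of them higher (7.18%) and 814 lower (6.06%). DESeq2 called 156 genes and limma-voom 51. Without CC075F1 replicate 2, edgeR called 89 genes, 79 higher (0.585%) and 10 lower (0.074%), and without CC080F1 replicate 2 it called 0. With library size alone, which moved the median gene from -0.02 to 0.06, the genes under an unadjusted p of 0.05 were 1302 higher and 175 lower. Irrespective of p, 1305 genes (9.71%) were higher and 1608 (12%) lower in all 4 sections. In the paragraphs that follow, no gene is described as changed in this comparison unless a fit that called it is named.

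Other genes of resident or M2-like macrophages had positive differences in the resident-high spots, though none was called over the 4 sections. Of 28 listed genes 26 passed the filter on low counts. All 26 had a positive log2 difference, 17 were higher in all 4 sections and 22 had an unadjusted p below 0.05, with 0 on the lower side. Their median log2 difference was 1.03, against -0.02 over all genes. The median ranged from 0.25 and 0.81 in CC075F1 to 0.45 and 1.46 in CC080F1. It was 0.60 over 21 genes with interior spots only and 0.45 over 17 genes with spots thinned to 5000 UMIs. Without CC075F1 replicate 2, 15 of 26 were called higher by edgeR, against 0.585% of all genes. Without CC080F1 replicate 2, edgeR called 0 genes of any kind. Many of these genes are known from the same cells as the rule genes, so the list describes the class more than it adds to it.

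Several abundant members of the list were higher in every section, whereas *Hmox1*, the heme oxygenase gene, was at 49.5 against 88.0 CPM in CC075F1 replicate 2 and higher in the other sections. *Pf4*, a platelet chemokine gene that tissue macrophages also express, was at 114 against 71.8 CPM in CC075F1 replicate 1 and 151 against 81.9 in replicate 2. It was at 147 against 107 and 191 against 88.9 CPM in CC080F1 replicates 1 and 2 (log2 difference 0.78 ± 0.09 SE, adjusted p = 0.0685). *Selenop*, which encodes the selenium carrier selenoprotein P, was at 105 against 76.6, 122 against 61.0, 108 against 80.01 and 145 against 57.8 CPM (0.81 ± 0.14, adjusted p = 0.137). The scavenger receptor gene *Stab1* was at 80.2 against 61.7, 117 against 54.9, 115 against 84.1 and 152 against 86.1 CPM (0.69 ± 0.11, adjusted p = 0.115). *Maf*, a transcription factor gene of resident macrophages, was at 39.0 against 30.2, 34.3 against 20.3, 45.6 against 35.6 and 47.8 against 29.0 CPM (0.55 ± 0.08, adjusted p = 0.104). For each of these genes the largest ratios were in CC075F1 replicate 2 and CC080F1 replicate 2. *Pf4* was called in 14 of 22 alternative fits, the most of any gene, and *Maf* in 10.

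Several defining members were measured on few UMIs. *Fcna*, encoding ficolin A, was at 1.69 against 0.498, 2.88 against 1.06, 5.62 against 2.47 and 19.4 against 5.20 CPM (log2 difference 1.58 ± 0.17, adjusted p = 0.0685), and it was called in 12 of 22 alternatives. *Lyve1*, the hyaluronan receptor gene that defines perivascular macrophages and also marks lymphatic vessels, was at 0.241 against 0.285, 1.96 against 0.463, 2.76 against 1.1 and 16.8 against 2.24 CPM (2.01 ± 0.38, adjusted p = 0.158). These values stood on 2, 17, 29 and 189 UMIs in the resident-high sums. *Cd163*, the hemoglobin scavenger receptor gene, had 3, 8, 18 and 51 UMIs there. *Vsig4*, a complement receptor gene, had 0 UMIs in both CC075F1 sums, which allows up to 0.380 and 0.292 CPM, and 28 and 39 UMIs in CC080F1. *Timd4*, another gene by which resident macrophages are often defined, was at 1.45 against 1.47, 2.65 against 2.61, 0.286 against 0.375 and 2.23 against 1.34 CPM (0.19 ± 0.25, adjusted p = 0.762). The defining genes *Lyve1*, *Cd163* and *Vsig4* were therefore at or near 0 in CC075F1 replicate 1, where the label rests on the 5 rule genes and the abundant members alone.

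**Figure D3:**
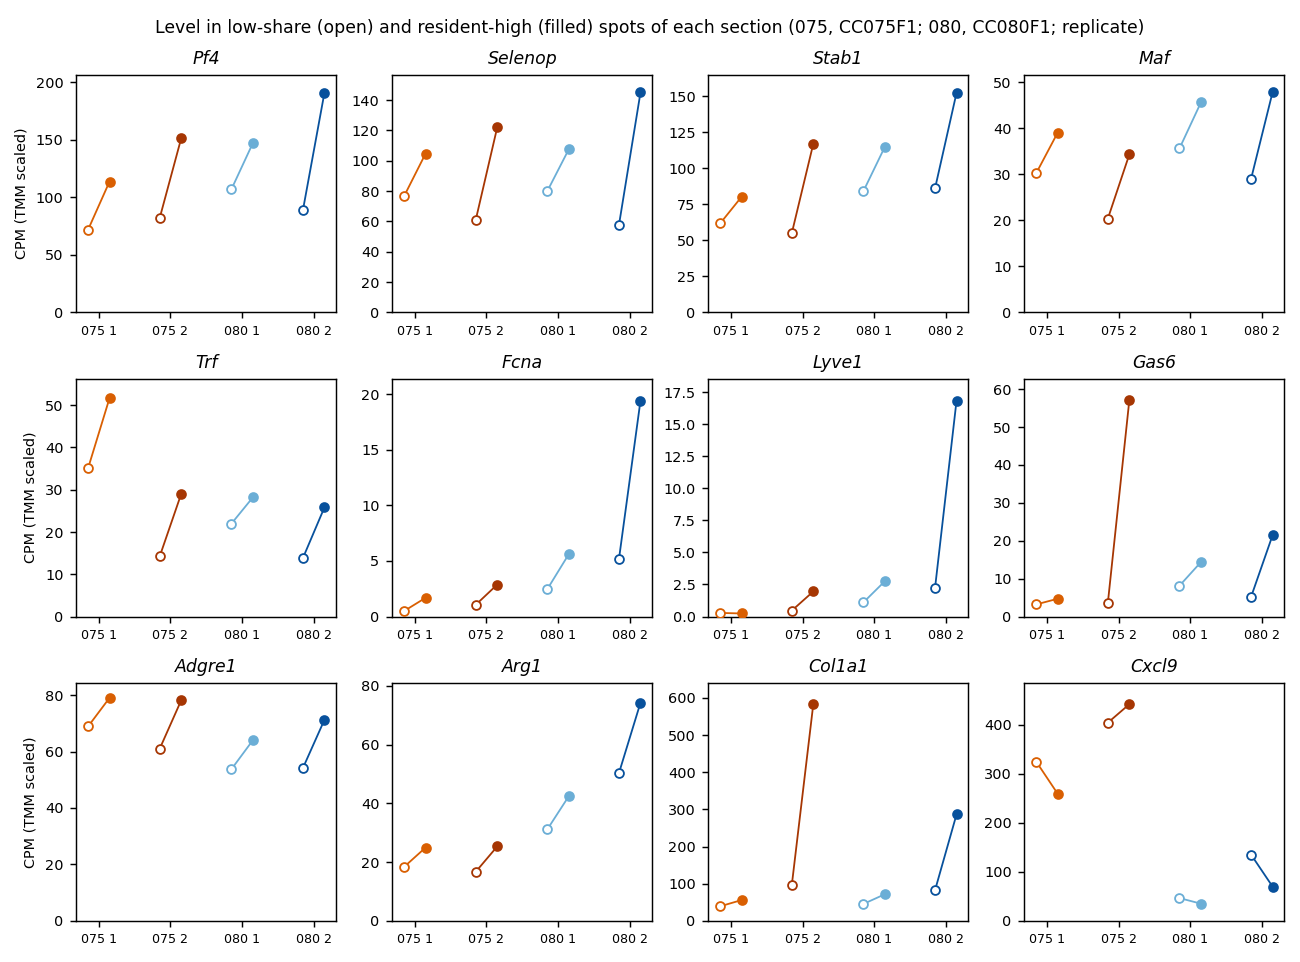
Level (TMM-scaled CPM, linear axes from 0) of 12 genes in low-share (open) and resident-high (filled) spots of each section. *Pf4*, *Selenop*, *Stab1*, *Maf*, *Fcna*, *Adgre1* and *Arg1* were higher in resident-high spots of all 4 sections, while *Cxcl9* was lower in 3 of 4.

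Macrophage genes in general had small positive differences, with 0 of 20 called. All 20 genes of the pan-macrophage list had a positive difference, 18 of them in all 4 sections, and 15 had an unadjusted p below 0.05, but the median was 0.24 (0.16 and 0.27 in CC075F1, 0.24 and 0.25 in CC080F1). *Adgre1*, which encodes F4/80, was at 79.0 against 68.9, 78.1 against 61.0, 64.0 against 53.7 and 71.2 against 54.2 CPM (0.30 ± 0.05, adjusted p = 0.121). *Lyz2*, the myeloid lysozyme gene, was at 2399 against 2084, 2798 against 2197, 1247 against 959 and 1786 against 1298 CPM. *Ptprc*, which encodes CD45, did not follow this direction in CC075F1 replicate 1, with 33.6 against 39.1 CPM. When resident-high and low-share spots were compared within strata of equal pan-macrophage share, the pan-macrophage median was 0.02 while the median of the resident list was 0.98. There, 15 of the 26 resident genes were called higher, against 0.74% of all genes called higher and 0.377% lower (edgeR). One pan-macrophage gene, *Mpeg1*, was called lower in that fit (-0.22) while it was at 0.04 over all spots. The strata equalise the summed share of these 20 genes and not the number of macrophages, whose part in the contrast was not tested.

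Genes of other macrophage states took different directions. *Arg1*, encoding arginase 1, was at 24.9 against 18.3, 25.3 against 16.7, 42.5 against 31.2 and 74.3 against 50.4 CPM, higher in 4 of 4 sections (0.51 ± 0.05). Its adjusted p of 0.0520 was the smallest of all genes, and it was called in 12 of 22 alternatives. *Spp1*, often paired with it as a marker of one tumor macrophage state, was at 123 against 123, 190 against 321, 149 against 144 and 303 against 436 CPM (-0.31 ± 0.13, adjusted p = 0.350). *Itgax*, which encodes the integrin CD11c of dendritic cells and some macrophages, was lower in 4 of 4 sections, at 19.0 against 26.8, 16.1 against 23.3, 4.95 against 7.19 and 9.17 against 15.9 CPM (-0.59 ± 0.08, adjusted p = 0.0737). *Ptgs2*, the gene of the inducible cyclooxygenase COX-2, was lower in 4 of 4 as well (-0.80 ± 0.11, adjusted p = 0.101). *Itgax* and *Ptgs2* were chosen after their values were seen. Among monocyte genes the median was 0.14, with 0.04 and 0.49 in CC075F1 and -0.06 and -0.01 in CC080F1.

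Genes induced by IFN-γ had small negative differences, with 0 of 16 called. All 16 listed genes had a negative difference, 5 of them in all 4 sections, and 6 had an unadjusted p below 0.05 on the lower side, with a median of -0.17. By section the medians were -0.21 and 0.05 in the CC075F1 tumors and -0.08 and -0.35 in those of CC080F1, so CC075F1 replicate 2 did not share the direction. With spots thinned to 5000 UMIs the median was -0.02. *Cxcl9*, a chemokine gene that recruits T cells, was at 259 against 325 and 442 against 404 CPM in CC075F1, and at 34.8 against 46.3 and 69.7 against 135 in CC080F1 (-0.37 ± 0.14, adjusted p = 0.342). *Gbp3*, a guanylate-binding protein gene, was lower in 4 of 4 sections, at 70.4 against 85.7, 85.5 against 89.3, 29.7 against 35.4 and 47.2 against 59.5 CPM (-0.23 ± 0.06, adjusted p = 0.219). Without CC075F1 replicate 2, *Cxcl9*, *Gbp3* and *Igtp* were called lower, against 0.074% of all genes. Within strata of equal pan-macrophage share, 8 of 16 were called lower with a median of -0.41, against 0.377% of all genes. So were 5 of the 7 MHC class II genes, with a median of -0.56. These strata fix the pan-macrophage share, so more RNA of 1 macrophage type may leave less of others, and this was not tested. Over all spots the MHC class II median was -0.15 and 0 of 7 had an unadjusted p below 0.05.

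Genes of fibroblasts and connective tissue had positive differences that were widest in CC075F1 replicate 2, with 0 of 14 matrix and 0 of 9 loose connective tissue genes called. Of 14 matrix genes, 13 had an unadjusted p below 0.05 on the higher side and 7 were higher in all 4 sections, with a median of 0.72. By section the medians were 0.11, 1.51, 0.11 and 0.61 in the same order of sections. With interior spots only the median was 0.31, and that of loose connective tissue genes was 0.20 where it was 0.94 over all spots. With spots thinned to 5000 UMIs the matrix median was 0.40. *Col1a1*, a chain of collagen I, was at 55.8 against 38.9, 583 against 95.8, 71.5 against 45.3 and 286 against 82.4 CPM (1.46 ± 0.31, adjusted p = 0.179). *Lox*, the enzyme that cross-links collagen, was at 3.01 against 2.66, 38.3 against 4.89, 7.33 against 1.89 and 24.2 against 6.12 CPM (2.02 ± 0.32, adjusted p = 0.120). *Gas6*, the ligand of the uptake receptor MERTK, is a member of the resident list that fibroblasts also express. It had the largest difference among genes of 10 CPM or more with an unadjusted p below 0.05 and 1 direction in all sections (2.03 ± 0.49, adjusted p = 0.222), and was at 57.1 against 3.55 CPM in CC075F1 replicate 2 but 4.70 against 3.20 in replicate 1. *Lox* and the ranking of *Gas6* were chosen after values were seen, since no gene passed the threshold. *Dcn*, the gene of the abundant proteoglycan decorin, differed by -0.01 ± 0.08, and its sign changed in 6 alternatives. Of 11 complement genes 10 had an unadjusted p below 0.05 on the higher side (median 0.61), with *C4b* at 12.0 against 11.5, 27.0 against 8.92, 6.28 against 3.45 and 25.9 against 11.5 CPM. The summed level of the matrix list was 2975 against 2730.1 CPM and 4626 against 2061 CPM in CC075F1, and 4085 against 3921 and 4822 against 3227 CPM in CC080F1. Without CC075F1 replicate 2, 3 of 14 matrix genes were called higher (*Col1a1*, *Col1a2* and *Loxl1*), against 0.585% of all genes.

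The resident list was also compared at an equal share of fibroblast matrix genes. Within strata of equal fibroblast share the matrix median was 0.07, and the median of the resident list was 0.85, with 17 of 26 genes called higher. There edgeR called 1.08% of all genes higher and 0.32% lower. IFN-γ genes had a median of -0.29 in that fit, with 7 of 16 called lower.

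Skeletal muscle genes were high in 1 section. Their median log2 ratio was 3.92 in CC075F1 replicate 2 and 0.00, -0.27 and 0.09 in the others. *Acta1*, skeletal muscle actin, was at 605 against 37.5 CPM there and between 0.0712 and 6.72 CPM in every class of the other sections. Mast cell genes had section medians of -0.29, 1.69, -0.16 and 0.63 on summed levels of 2.77 to 27.6 CPM. Endothelial genes, of interest because *Mrc1* is also endothelial, had 1 of 12 with an unadjusted p below 0.05 and section medians from -0.25 to 0.55. The part of these cell types in the results was not tested. Hypoxia genes also differed mostly there, with a median of -1.09 against -0.02, 0.00 and -0.24. Proliferation genes had a median of 0.00 and 0 of 10 with an unadjusted p below 0.05.

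Of the 14 chemokine genes listed, 0 were called. *Ccl7* was at 74.5 against 59.5, 198 against 151, 103 against 78.0 and 106 against 83.8 CPM (0.36 ± 0.04, adjusted p = 0.0685), and it was called in 11 of 22 alternatives. *Ccl8* was at 93.4 against 81.4, 364 against 137, 25.6 against 21.7 and 155 against 62.8 CPM (0.85 ± 0.20, adjusted p = 0.219). Over the list, 7 had an unadjusted p below 0.05 on the higher side and 2 on the lower. In all 4 sections 5 genes were higher and 1 lower.

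The contrast was then compared between the strains. Of 13440 genes, 1 was called for a difference (0.00744%, edgeR interaction of class and strain). It was *Acta1*, the muscle gene of CC075F1 replicate 2, with a log2 difference of 4.29 between the strains, and leaving out the spots with skin, muscle or fat markers also left 1 call. DESeq2 and limma-voom called 0, and 246 genes had an unadjusted p below 0.05. Leaving out any section leaves 1 strain with a single section, so calls from such fits cannot be read as a strain difference and are not given. None of the 26 resident genes was called for a difference between strains, and 2 had an unadjusted p below 0.05.

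To place the class among other macrophage states, resident-high spots were compared with 2 classes of the same size, the top 10% of each section by the share of *Spp1* and *Arg1* and the top 10% by *Cxcl9*. The 3 comparisons share the resident-high spots, and all classes were chosen on measured values, so genes made by the same cells as the choosing genes describe the classes. Of the resident-high spots, 12.1%, 12.3%, 14.1% and 7.69% were also *Spp1*/*Arg1*-high, against 11.4%, 11.3%, 10.6% and 11.8% of low-share spots. The exact 95% intervals of the resident-high shares, which cover counting error only, were 8.41% to 16.6%, 8.94% to 16.4%, 10.2% to 18.8% and 4.99% to 11.2%. For *Cxcl9*-high the shares were 6.42%, 10.5%, 7.61% and 6.41%, against 11.5%, 9.29%, 11.5% and 11.9% of low-share spots. The intervals of the last were 3.78% to 10.1%, 7.35% to 14.3%, 4.77% to 11.4% and 3.96% to 9.73%. Resident-high spots thus held fewer *Cxcl9*-high spots than the low-share spots in 3 of 4 sections and more in CC075F1 replicate 2. Spots in both classes of a comparison were left out of it.

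Against *Spp1*/*Arg1*-high spots, 35 of 12089 genes were called higher in resident-high spots (0.29%) and 92 lower (0.761%, edgeR). The higher calls needed nearly all sections. Without CC075F1 replicate 2, CC080F1 replicate 1 or CC080F1 replicate 2, edgeR called 1, 0 and 0 genes higher, so the higher genes named here are calls of the full set. Higher genes included the resident genes *Selenop* (log2 difference 1.02 ± 0.14, adjusted p = 0.0357), *Stab1* (0.80 ± 0.13, adjusted p = 0.0444) and *Maf* (0.70 ± 0.09, adjusted p = 0.0251). *Selenop* was at 102 against 73.4, 122 against 52.5, 111 against 58.9 and 139 against 50.7 CPM. *Adgre1* was higher by 0.40, and the matrix genes *Col3a1*, *Col5a1* and *Col6a1* by 0.83, 0.71 and 0.63. *Ighm*, the immunoglobulin M heavy chain gene, was higher by 0.86. Among lower genes, *Mmp12*, the macrophage elastase gene, was at 7.55 against 76.1, 5.06 against 24.8, 2.28 against 62.6 and 3.31 against 23.8 CPM (-3.30 ± 0.28, adjusted p = 0.00726). The granzyme genes *Gzmd*, *Gzme*, *Gzmf* and *Gzmg*, which form one cluster of close relatives whose reads can be shared, were lower by -2.64, -2.41, -2.67 and -3.01. *Gzmg* was at 20.3 against 223 CPM in CC075F1 replicate 2 and 29.5 against 142 in CC080F1 replicate 2.

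Genes of hypoxia were lower as well. All 10 had a negative difference with an unadjusted p below 0.05 and a median of -0.91, of which *Ndrg1* (-1.01 ± 0.18, adjusted p = 0.0457) and *Vegfa* (-0.82 ± 0.15, adjusted p = 0.0457) were called. Over all 12089 genes, 1345 had an unadjusted p below 0.05 on the lower side, and 0.761% were called lower. *Vegfa*, the vascular growth factor gene, was at 89.5 against 100, 50.6 against 115, 86.7 against 159 and 67.0 against 139 CPM. *Lgals3*, encoding galectin 3, was lower by -1.05, and *Il1rn*, the interleukin 1 receptor antagonist gene, by -1.43. Of the 19 resident genes tested, 3 were called higher, against 0.29% of all genes, and the median was 0.63. *Pf4* did not differ by a called amount (0.24 ± 0.16, adjusted p = 0.432) and was lower in CC080F1 replicate 1, at 139 against 180 CPM. With library size alone, which moved the median gene from -0.01 to 0.13, 5 genes were called higher and 15 lower. The counts also leaned on single sections, with 1243 genes called without CC075F1 replicate 1. Without CC075F1 replicate 2, CC080F1 replicate 1 or CC080F1 replicate 2, 5, 5 and 7 were called, of which 4, 5 and 7 were lower.

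Against *Cxcl9*-high spots, 287 of 12217 genes were higher in resident-high spots (2.35%) and 425 lower (3.48%, edgeR). Of 19 resident genes 12 were higher and 1, *Ccl8*, was lower (-0.44 ± 0.11, adjusted p = 0.0412). *Pf4* was at 119 against 63.8, 164 against 83.3, 152 against 98.4 and 199 against 93.4 CPM (0.90 ± 0.06, adjusted p = 5.05e-06). *Gas6* was higher by 1.84 ± 0.31 (adjusted p = 0.00405) and *Hmox1*, by which macrophages break down heme, by 1.04 ± 0.13 (adjusted p = 0.000398). *Arg1* was higher by 0.85 ± 0.09 (adjusted p = 0.000104). Pan-macrophage genes were split, with 2 higher and 5 lower of 20 and a median of -0.03, and their section medians ran from -0.15 to 0.08.

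Genes induced by IFN-γ were lower in resident-high spots than in *Cxcl9*-high spots, in 14 of the 15 listed genes tested (median -1.19, against 0.01 over all genes, of which 3.48% were called lower). *Cxcl9*, which chose the other class, belongs to this list, so these differences describe the choice of the *Cxcl9*-high spots. Against low-share spots the list median was -0.17, with 0 of 16 called. *Cxcl10* was at 232 against 538, 277 against 772, 162 against 370 and 228 against 650 CPM (-1.35 ± 0.06, adjusted p = 8.72e-08). All 7 MHC class II genes were lower, with a median of -0.96, including *H2-Ab1* (-1.05 ± 0.14, adjusted p = 0.000732) and the class II regulator *Ciita* (-1.40 ± 0.17, adjusted p = 0.000431). Monocyte genes were lower in 6 of 10, among them *Ly6c2* at 1.58 against 3.60, 20.3 against 53.6, 2.12 against 7.04 and 9.14 against 23.8 CPM (-1.42 ± 0.10, adjusted p = 5.05e-06). *Fn1*, encoding fibronectin, was the 1 member of that list that was higher (0.37 ± 0.05). Endothelial genes were lower in 9 of 12, such as the vascular growth factor receptor gene *Kdr* (-0.68 ± 0.11, adjusted p = 0.00292). Of the T cell genes 3 of 9 were lower, with *Cd3g* at -0.69 ± 0.15.

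Hypoxia genes were higher in resident-high than in *Cxcl9*-high spots, in 9 of 10, with a median of 0.61 (2.35% of all genes were called higher). Their summed level was 3225 against 2077, 2803 against 2386, 2479 against 1987 and 3003 against 2238 CPM. In low-share spots, as scaled in the first comparison, it was 2959, 4857, 2407 and 3364 CPM. Against low-share spots the list median was -0.44 to -0.07 over the fits. A higher hypoxia level was therefore not particular to resident-high spots. *Bnip3*, a mitochondrial gene induced at low oxygen, was at 126 against 34.7, 84.6 against 45.7, 105 against 53.8 and 135 against 53.8 CPM (1.25 ± 0.11, adjusted p = 4.63e-05). The glucose transporter gene *Slc2a1* was higher by 0.85 ± 0.09 (adjusted p = 0.000152). Between 582 and 603 genes were called without CC075F1 replicate 1, CC075F1 replicate 2 or CC080F1 replicate 1, and 276 without CC080F1 replicate 2. *Acta1* was called higher (2.48 ± 0.55) on CC075F1 replicate 2 alone, at 711 against 73.6 CPM, and was lower with interior spots only (-2.12).

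**Figure D4:**
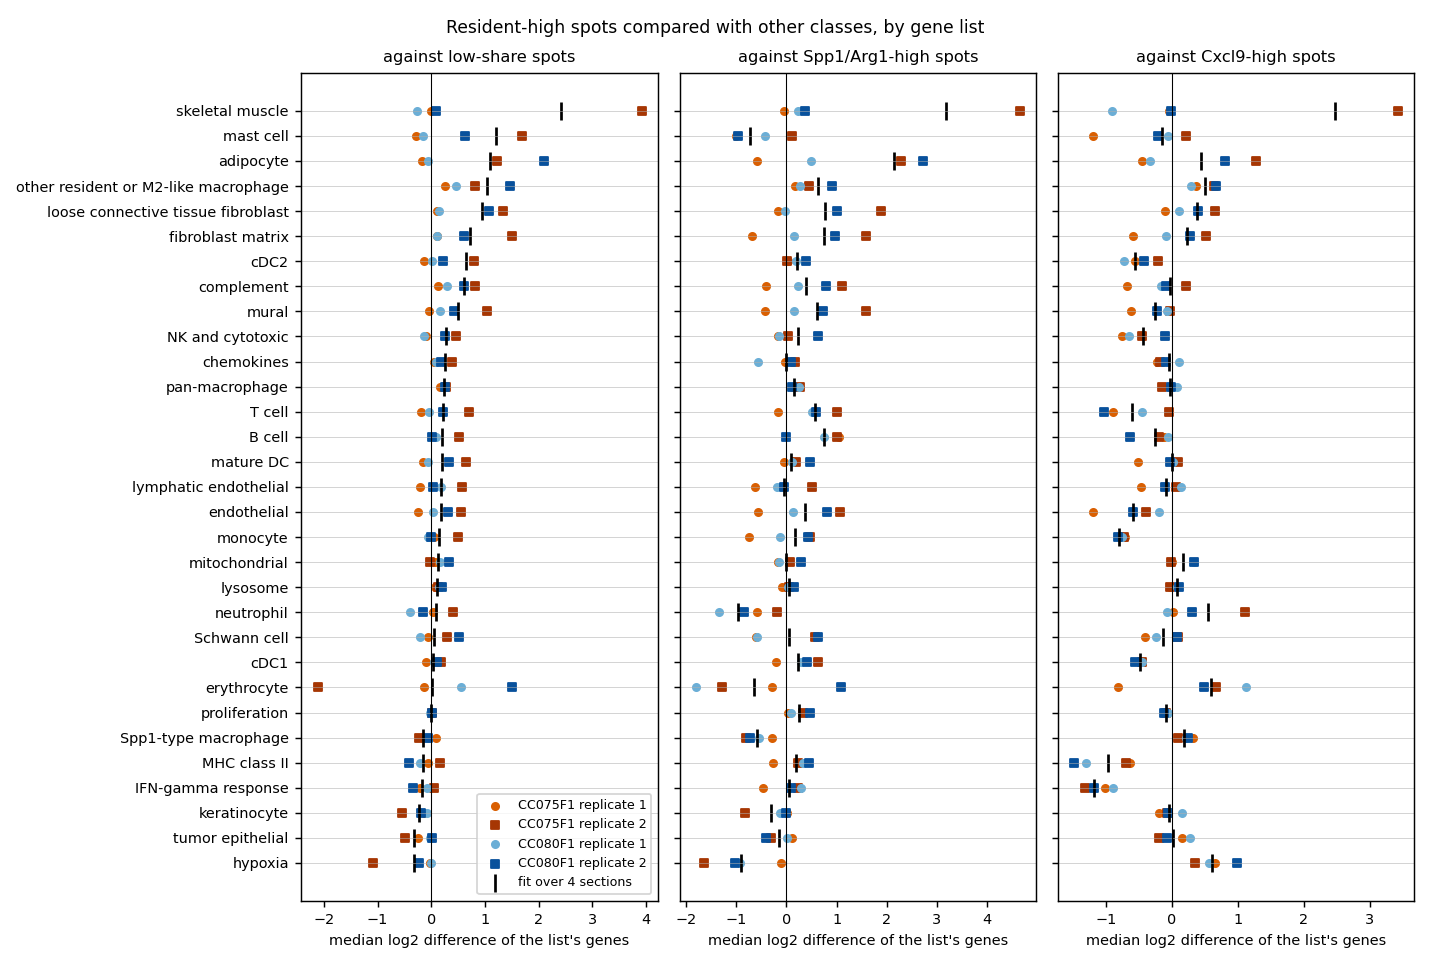
Median log2 difference of each gene list's members in resident-high spots against low-share, *Spp1*/*Arg1*-high and *Cxcl9*-high spots, by section (points) and in the fit over 4 sections (black ticks). The resident list lies above 0 in every panel, while IFN-γ and MHC class II lists lie furthest below 0 against *Cxcl9*-high spots, at -1.19 and -0.96. *Cxcl9*, which chose those spots, belongs to the IFN-γ list.

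The levels around resident-high spots were read from the unselected spots at each distance. These CPM are not scaled by TMM factors, so they differ from the scaled values above for the same spots. In CC075F1 replicate 2 the TMM factors were 0.846 for resident-high and 0.707 for low-share spots. The part of composition in the levels by distance was not tested. The summed level of the resident list, without the rule genes, was 734, 943, 846 and 1227 CPM in resident-high spots. At 1 grid step it was 629, 602, 718 and 736 CPM. At 5 or more steps it was 584, 359, 630 and 551 CPM. In every section the step away from a resident-high spot lowered the level by more than all further steps together. Pan-macrophage genes were at 10036 CPM in the resident-high spots and 5311 CPM at 5 or more steps in CC075F1 replicate 2, and at 9504 and 8410 CPM in replicate 1. Matrix genes were at 3906 and 934 CPM in CC075F1 replicate 2 and at 5150 and 3104 CPM in CC080F1 replicate 2. They were nearly level in CC075F1 replicate 1 (3126 to 2983 CPM) and CC080F1 replicate 1 (4768 to 4645 CPM). IFN-γ genes were at 1856 and 2488 CPM in CC075F1 replicate 1 but at 1889 and 1155 CPM in replicate 2, so they were higher far from the class in one section and lower in the other.

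**Figure D5:**
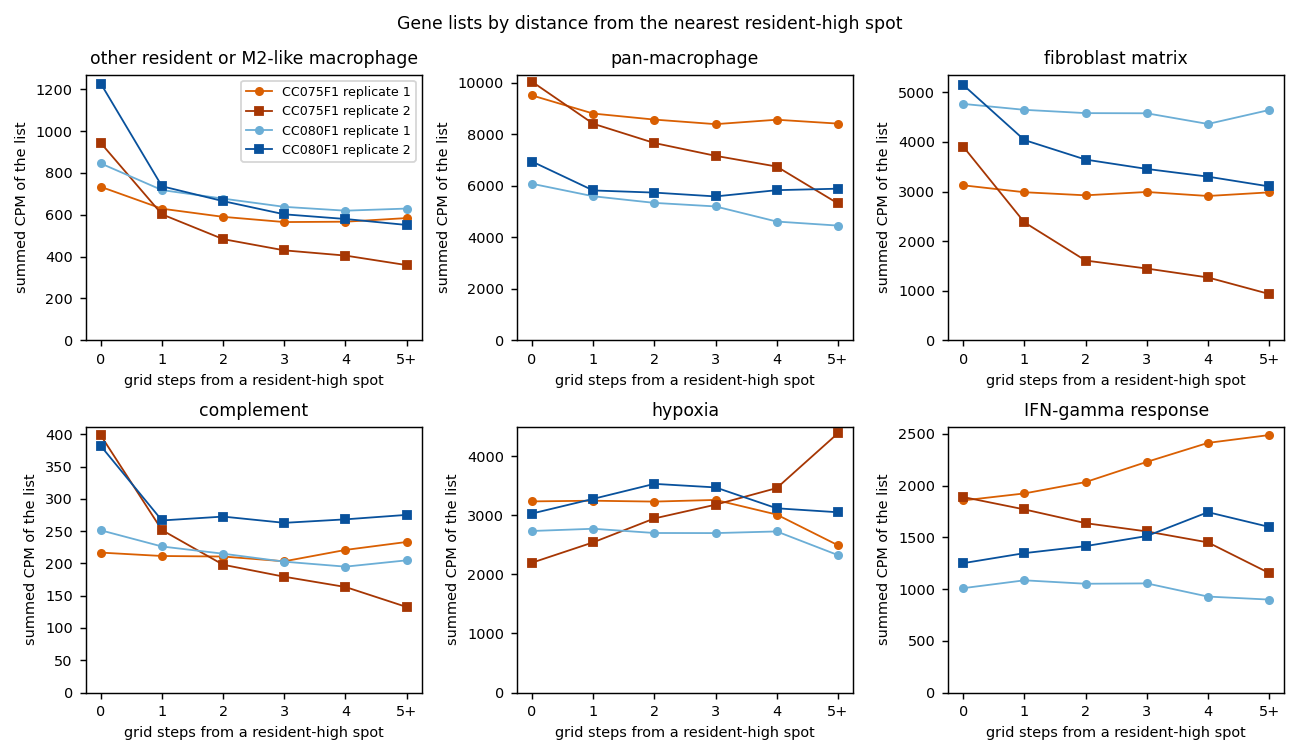
Summed CPM of 6 gene lists (without TMM factors, linear axes from 0) against the number of grid steps from the nearest resident-high spot, with 0 for the resident-high spots themselves, by section. The resident list was at 1227 CPM at 0 steps and 736 CPM at 1 step in CC080F1 replicate 2, and matrix genes were lower at each further step there and in CC075F1 replicate 2.

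Across 10 equal bins of spots by the share of the rule genes, the resident list differed most at the top (CPM without TMM factors). In CC075F1 replicate 2 it was at 614 CPM in bin 9 and 943 in bin 10, the highest, and in CC080F1 replicate 2 at 821 and 1227. In CC075F1 replicate 1 it was at 656 and 734 CPM, with 556 in bin 1. In CC080F1 replicate 1 it was at 758 and 846 CPM, with 620 in bin 1. The gap between bins 9 and 10 was therefore wider in CC075F1 replicate 2 and CC080F1 replicate 2 than in the other sections.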

How the data were processed

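The deposited values were Visium UMI counts per gene and spot, which the authors made with Space Ranger on mm10 (matrix headers: Space Ranger 1.3.1; the submitters' processing notes also name GRCm38 and Seurat 5.0.1), with no normalization. Tissue positions came from the deposited position lists, and gene coordinates from GENCODE on GRCm38. The members and gene lists were chosen with earlier results of these data known.

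Spots of 5000 or more UMIs were ranked within each section, and UMIs were summed per class and section. The 8 sums, whose sections are 4 samples labelled as biological replicates, were tested with edgeR 4.0.16 (R 4.3.3): quasi-likelihood, TMM factors, filterByExpr, section as a block and Benjamini-Hochberg adjustment at 0.05. DESeq2 1.42.0 and limma 3.58.1 were alternatives. Ratios within a section used log2(CPM + 0.5). Interaction of class and strain tested strain differences. Spatial ratios used two-sided exact sign-flip permutation tests over sections (scipy 1.17.1). Scripts were tested on simulated data.

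Named genes were the 5 rule genes, genes used by the study or the compared classes, up to 10 per direction among called genes of 10 CPM or more with 1 direction in all sections (5 per direction in the other comparisons), and up to 3 such members plus the most abundant one of each list. No gene was called in the first comparison, so its other examples were chosen after values were seen. Alternatives covered normalization, filters, depth, thinning, position, class limits, strata and each section left out. Intervals cover counting error only. Total counts per section ran from 82594649 to 146460975 UMIs. The labels name no slide or batch, so none could be fitted.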

Additional observations from a re-analysis of the deposited data

Results flagged for a closer look

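Of 34 results examined, 7 were singled out, and chance alone would single out about 1 in 20 groups for a sample far from the others. CC075F1 replicate 2 stood far from the other 3 sections in the log2 ratio of the edge share (1.35, others -0.10 to 0.10), the median log2 ratio of skeletal muscle genes (3.92, others -0.27 to 0.09) and that of B cell genes (0.51, others 0.02 to 0.09). Within strata of spot depth the edge value of that section was 0.42, and with spots thinned to 5000 UMIs it was 0.77. The part of depth in the muscle and B cell values of that section was not tested.

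Both CC075F1 sections lay on one side of 0 and both CC080F1 sections on the other in 3 lists. Such a split of signs can arise by chance with so few sections, and the number of lists expected to show it was not worked out. Some medians were close to 0, such as -0.01 for monocyte genes in CC080F1 replicate 2 and 0.04 for neutrophil genes in CC075F1 replicate 1. The strains' mean list medians (CC075F1 minus CC080F1) differed by 0.30 for monocyte genes, 0.50 for neutrophil genes and -2.16 for erythrocyte genes, and these differences of list medians were not tested. Among the members, in the edgeR interaction test, 0 were called. An unadjusted p below 0.05 was found for 3 of 10 monocyte, 2 of 6 neutrophil and 4 of 4 erythrocyte genes, against 246 of all 13440 genes. The erythrocyte genes were on the lower side for CC075F1. These lists were singled out on the same section values, so the counts of members describe them and are no separate test. The erythrocyte medians in CC075F1 were -0.13 in replicate 1 and -2.12 in replicate 2. *Acta1*, skeletal muscle actin, differed between the strains by 4.29 on the log2 scale in the edgeR interaction test, on the level of CC075F1 replicate 2.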

How the results depend on the processing

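The count of genes called against low-share spots, 0, stayed 0 in 8 of 27 alternatives: classes by neighbouring spots, library size alone, no section block, spots of 10000 or more UMIs, the top 20%, *Cbr2* or *Folr2* left out of the choice, and CC080F1 replicate 2 left out. It was 156 with DESeq2, 1 with DESeq2 size factors, 51 with limma-voom, 301 with no filter, 7 against all other spots, 52 with interior spots only, 97 with spots thinned to 5000 UMIs, 5 with the top 5% and 12 without skin, muscle and fat spots. It was 127, 151 and 188 within strata of depth, pan-macrophage share and fibroblast share, and 58, 3 and 8 with *Fcrls*, *F13a1* or *Mrc1* left out of the choice. Leaving out 1 section gave 0 to 89 calls, with 89 without CC075F1 replicate 2. The strain difference (1 call) gave 0 with DESeq2, limma-voom or classes by neighbouring spots, 21 with no filter, 2 with interior spots or spots of 10000 or more UMIs, 3 with thinned spots, the top 5% or pan-macrophage strata, 7 with fibroblast strata, and 0 to 739 with 1 section left out (739 without CC075F1 replicate 1).

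Against *Spp1*/*Arg1*-high spots (127 calls) the counts were 403 with DESeq2, 202 with limma-voom, 20 with library size alone, 878 with no filter, 75 with interior spots, 16 with spots of 10000 or more UMIs, 204 without skin, muscle and fat spots, and 5 to 1243 with 1 section left out. Against *Cxcl9*-high spots (712 calls) they were 413 with DESeq2, 1197 with no filter, 240 with thinned spots and 276 to 603 with 1 section left out. Of the 5 rule genes, spots of 10000 or more UMIs gave 1 call on the other 4 genes, and leaving out 1 section gave 0 to 4 there and 0 to 5 with neighbouring spots. The neighbour log2 ratio of 1.15 was 0.41 with thinned spots, 0.73 with the top 20% and 1.76 with the top 5%. The cause of these changes was not tested.

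Against low-share spots 64 of 176 named genes and 17 of 31 list medians changed sign in at least 1 alternative, and against *Spp1*/*Arg1*-high and *Cxcl9*-high spots 14 and 12 genes did. A sign change in which one of the values was called occurred for *Hbb-bs* without CC075F1 replicate 2 (0.80, and -0.62 to 0.80 with 1 section left out), for *Acta1* against *Cxcl9*-high spots with DESeq2 (-0.55) and interior spots (-2.12), and for *Mpeg1* within pan-macrophage strata (-0.22). List medians moved by less than the spread between sections in 628 of their alternatives against low-share spots and by more in 53.

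A replicate block, which lets the class effect differ by replicate number, gave 404, 90, 1287 and 803 calls in the 4 comparisons. Samples share only a number, since the labels name no common batch. The difference between replicates 1 and 2 correlated between the strains by 0.352 across 8470 genes, with 2 pairs only.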

Other observations

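T cell genes had section medians of -0.19, 0.70, -0.04 and 0.22 (CC075F1 first), with 1 of 11 at an unadjusted p below 0.05. Natural killer and cytotoxic genes had medians of -0.10, 0.46, -0.14 and 0.26, with 0 of 7. Lysosomal genes had positive medians in every section, 0.06, 0.12, 0.14 and 0.20, with 0 of 13 called, and 6 had an unadjusted p below 0.05 on the higher side. Of 4 adipocyte genes 2 did, with section medians of -0.18, 1.22, -0.06 and 2.10.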
